A study of Mus musculus with 8 samples.

Results

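Control melanoma tumors that carried the vector alone and were grown under an antibody against PD-1 are described here by the genes they express. They are the 5 libraries labelled Vector, 5 of the 8 libraries of the series, and they come from 3 of its 6 tumors: tumors 1 and 2 were each sequenced as 2 portions, and tumor 3 as 1 library. Members were chosen by that label alone, and no library with Colq over-expression enters any value below. The tumors were grown from B16mhgp100 cells, a B16 mouse melanoma line that carries a gp100 antigen, under the skin of C57BL/6 mice, and the cells held the control vector of an over-expression experiment. All the mice received anti-PD1 at 200 µg per dose from day 10 after inoculation, with 2 doses per week and 4 doses in all, and the tumors were collected 1 day after the last dose. Every library is therefore from treated tissue, with no untreated tumor beside it, and none of the levels below can be read as an effect of the antibody. The age and sex of the mice, the promoter of the vector and whether the cell line is 1 clone are named in none of the sources used here.

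Melanocytes make pigment in melanosomes, where tyrosinase starts the oxidation of tyrosine and the related enzymes Tyrp1 and Dct act on later intermediates, on a fibrous scaffold built from Pmel, the protein also known as gp100. The transcription factor Mitf, together with Sox10, switches on these pigment genes. PD-1, encoded by Pdcd1, restrains T cells when it binds PD-L1, encoded by Cd274. Interferon gamma from T cells and NK cells raises PD-L1, antigen presentation and a wide set of interferon-stimulated genes in the cells that receive it.

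The sequences before the start sites of 2 pigment genes and 2 interferon-stimulated genes are shown because these gene groups lie at opposite ends of the pattern described below: pigment genes were mostly highest in tumor 3, and interferon-stimulated genes mostly lowest there. Each run is the 250 bases before the start site, 5′ to 3′ on the strand of the gene, from RefSeq windows on GRCm38.p6, a build that differs from the mm39 of the expression values. Capitals mark the M-box TCATGTG, a motif known to be bound by Mitf, in Tyrp1 (chr4:80833963-80834212, plus strand) and Dct (chr14:118052247-118052496, minus strand), and the letters GAAANNGAA, the core of the element bound by interferon-activated STAT and IRF factors, in Isg15 (chr4:156200819-156201068, minus strand) and Ifit3 (chr19:34583279-34583528, plus strand), each on either strand.
Tyrp1: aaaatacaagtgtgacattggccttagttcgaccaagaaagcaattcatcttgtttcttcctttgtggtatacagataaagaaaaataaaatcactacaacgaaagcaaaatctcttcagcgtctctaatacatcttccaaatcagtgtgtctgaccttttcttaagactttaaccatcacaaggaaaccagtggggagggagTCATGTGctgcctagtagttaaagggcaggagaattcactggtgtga
Dct: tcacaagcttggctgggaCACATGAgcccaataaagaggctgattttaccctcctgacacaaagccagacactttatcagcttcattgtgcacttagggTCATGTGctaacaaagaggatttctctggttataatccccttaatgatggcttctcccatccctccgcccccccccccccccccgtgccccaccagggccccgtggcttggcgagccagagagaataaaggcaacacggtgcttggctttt
Isg15: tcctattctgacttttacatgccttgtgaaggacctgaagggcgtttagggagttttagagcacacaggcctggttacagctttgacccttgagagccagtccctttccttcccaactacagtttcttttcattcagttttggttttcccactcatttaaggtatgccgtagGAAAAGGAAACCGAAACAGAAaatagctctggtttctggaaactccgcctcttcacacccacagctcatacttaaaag
Ifit3: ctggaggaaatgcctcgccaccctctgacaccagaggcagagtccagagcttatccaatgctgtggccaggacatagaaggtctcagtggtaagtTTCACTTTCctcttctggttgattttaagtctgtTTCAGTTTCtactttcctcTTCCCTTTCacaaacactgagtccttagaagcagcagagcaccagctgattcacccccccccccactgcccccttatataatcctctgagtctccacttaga
The M-box of Tyrp1 begins 47 bases before the start site, and Dct holds 2 matches, which begin 232 and 151 bases before it on opposite strands. In Isg15, 3 overlapping matches begin 78, 72 and 66 bases before the start site. Ifit3 holds 3 separate matches on the other strand. Both motifs were searched on both strands in windows of 300 bases, with 250 before and 50 after the start, and neither motif is part of the other. The M-box was found in 7 of 17 windows of 15 genes of melanin synthesis and in 0 of 25 windows of 21 interferon-stimulated genes, beside 3.77% of all 32851 windows. It was also in 3 of 14 windows of macrophage genes, 1 of 16 of melanocyte regulators and 0 of 19 of MHC class I. GAAANNGAA was found in 15 of those 25 windows of interferon-stimulated genes and in 0 of the 17 windows of melanin synthesis, beside 8.56% of all windows. It was in 2 of the 14 macrophage windows, 0 of the 16 of melanocyte regulators and 4 of the 19 of MHC class I. Matches of letters are a description and not evidence of binding in these tumors.

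Expression was measured as TPM, a level scaled to transcript length and to 1 common total per library that keeps no library depth, so that the precision of each value is known only from the spread between libraries. The table holds 28918 genes, of which 13802 had a mean of at least 1 TPM over the 3 tumors, the level called expressed here. As background for counts of members expressed in every tumor, 12845 of the 28918 genes reached 1 TPM in each of the 3 tumors. Each library held between 19887 and 20894 genes above 0 and gave 3.75% to 5.27% of its TPM to mitochondrially encoded genes. The gene said to vary most in a list is the expressed member with the largest SD of log2(TPM + 1) over tumors, which need not have the largest SD in percent of the mean. Portions of a tumor were averaged, so means and SDs are over 3 tumors (n = 3). Across expressed genes the SD of the log2 difference was 0.52 between the portions of tumor 1 and 0.51 between those of tumor 2, and from 0.45 to 0.57 between libraries of different tumors. The median absolute log2 difference was 0.14 between the portions of tumor 1, the smallest of the 10 pairs, 0.22 between those of tumor 2, and from 0.15 to 0.23 between tumors. Whether levels differ among the 3 tumors by more than between portions was tested with limma's F-test on log2(TPM + 1) with Benjamini-Hochberg adjustment over all 13802 genes. None passed an adjusted p of 0.05 (0%), and 987 genes (7.15%) had an unadjusted p under 0.05, so every order of tumors given below is a description. With robust variance estimates the same test called 5 genes. As further background, tumor 3 lay below all 4 other libraries in 20.6% of expressed genes and above all of them in 24.5%. Both portions of tumor 2 lay above all other libraries in 10.9%, and both portions of tumor 1 in 7.67%. The range over libraries was at least 2-fold in 20.2%, and the median SD over tumors was 10.9% of the mean.

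One library carried genes of skin. Tumor 1 portion 1 held Krt14, a keratin of basal epidermis, at 133 TPM, beside 0.18, 15.4, 0 and 0.18 TPM in tumor 1 portion 2, the portions of tumor 2 and tumor 3. Values below are always given in that order. Keratin genes, the neutrophil genes S100a8 and S100a9 and other genes of that library are described with and without it further down.

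Pigment genes were among the most abundant transcripts of these tumors. Among genes that are neither mitochondrially encoded nor ribosomal proteins, the 15 of highest mean included Gapdh (11932 TPM), Tmsb10 (7842 TPM), B2m (7077 TPM), Eef1a1 (6979 TPM), Ftl1 (6829 TPM), Pmel, Dct, Tyrp1, Ppia, Eno1, Pgk1, Mif (3156 TPM), Fth1 and Tpt1, and together the 15 took 8.22% of all TPM. The order passes over 3 numbered gene models, Gm10925, Gm28661 and Gm28437, which resemble mitochondrial genes and may share their reads. Pmel stood at 6612 ± 342 TPM (SD, n = 3), Dct at 5528 ± 1102 TPM and Tyrp1 at 4985 ± 538 TPM. The 101 genes of the tumor lists in the table, which cover pigment, lineage, proliferation and metabolism, took 6.42 ± 0.20% of all TPM, beside 0.645 ± 0.174% for 186 genes of stroma and other tissues and 3.81 ± 0.45% for 350 immune genes. The immune share includes genes that tumor cells also express, such as B2m, Gpnmb, Apoe and Mif, and is no measure of immune cells. Nor is the tumor share a measure of tumor cells, as it includes glycolysis genes (2.70% of TPM) that other cells also express.

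**Figure D1:**
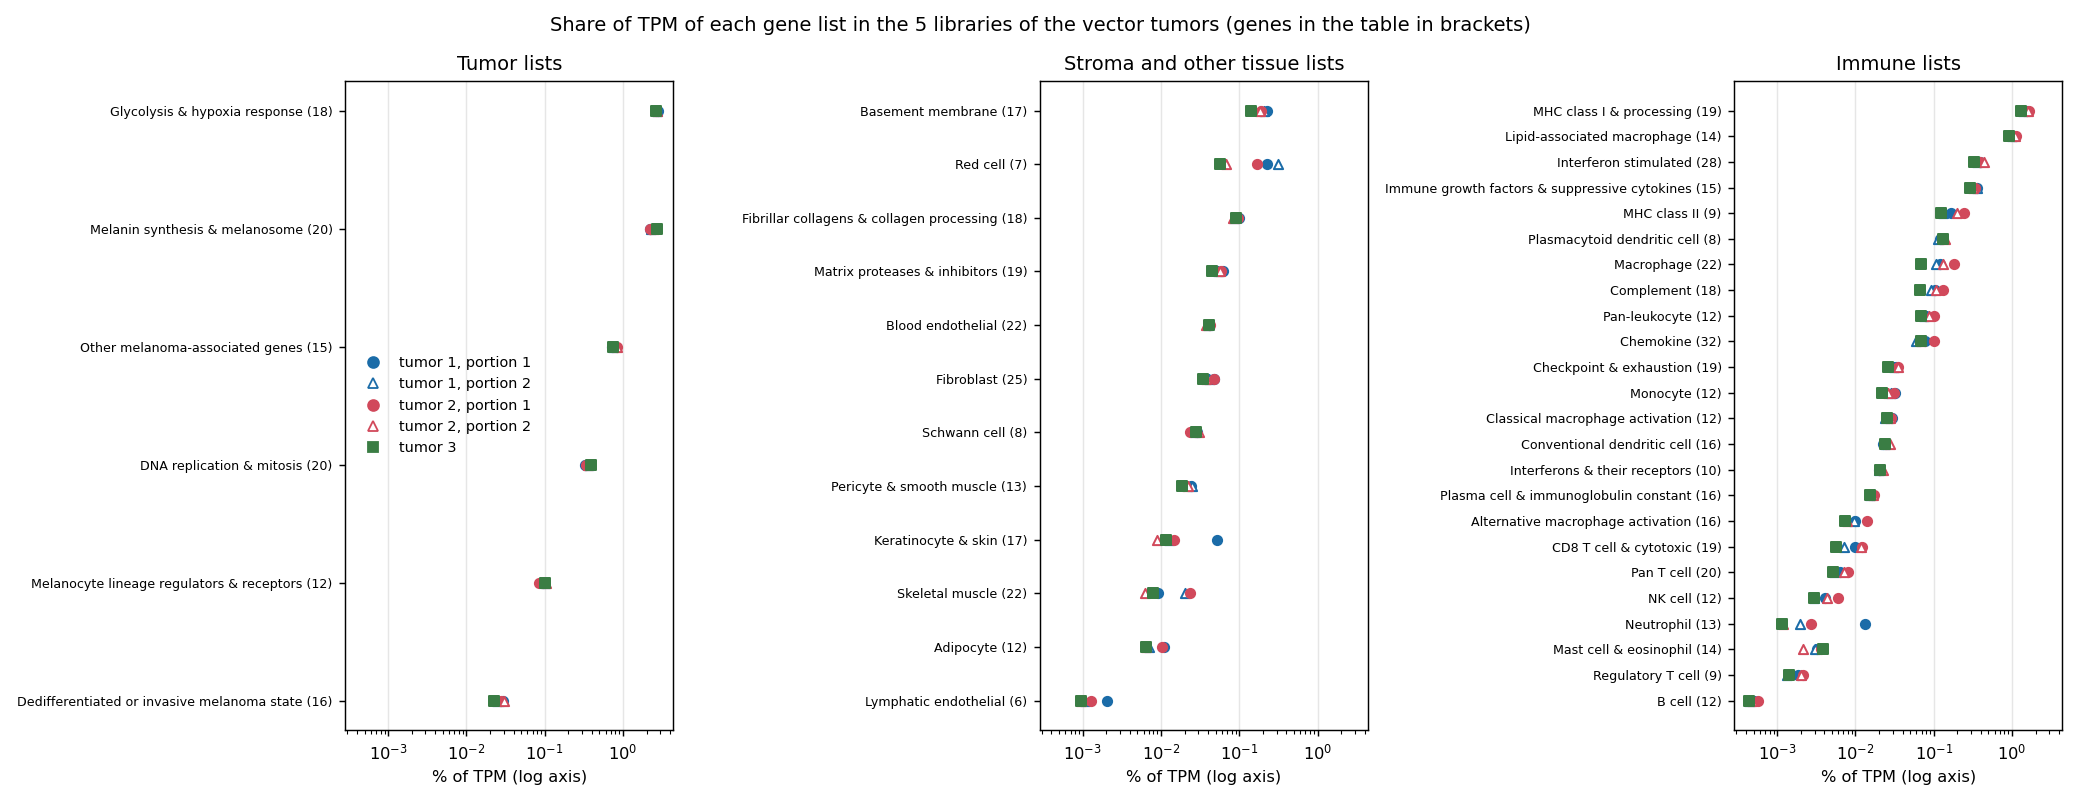
Share of all TPM taken by each gene list (x axis, percent, log axis) in the 5 libraries of the vector tumors, with lists ordered by mean share and coloured by tumor. Melanin synthesis and glycolysis led with 2.46% and 2.70%, the T cell list took 0.00621% and the B cell list 0.00048%; the keratinocyte and neutrophil lists have 1 library apart from the rest.

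All 20 genes of melanin synthesis and the melanosome were expressed in every tumor, which fits the label of a pigmented melanoma. Their summed share was 2.22% and 2.30% in the portions of tumor 1, 2.22% and 2.52% in those of tumor 2 and 2.74% in tumor 3. Pmel, whose product forms the melanosome scaffold and carries the gp100 antigen, held 6095, 6584, 6026, 6977 and 6996 TPM, an SD of 5.17% of the mean. Reads of the introduced gp100 may be counted with the gene of the mouse, and the part of each in this level was not tested. Dct, the dopachrome tautomerase, held 4598, 4323, 4871, 6049 and 6662 TPM, and Tyrp1 held 4624, 5036, 4288, 4796 and 5583 TPM. Tyr itself was far lower, at 168, 198, 191, 230 and 208 TPM, and did not order the tumors. Mlana, the antigen MART-1, stood at 1810 ± 321 TPM and Gpnmb, a glycoprotein of melanosomes and lysosomes, at 2284 ± 199 TPM.

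Tumor 3 was the highest library for 14 of these 20 genes, beside 24.5% of all expressed genes, and it was the lowest for 2, among them Gpnmb. Trpm1, a cation channel of melanocytes, varied most in the list: 264 and 337 TPM in tumor 1, 437 and 341 TPM in tumor 2 and 652 TPM in tumor 3. Oca2, a melanosomal chloride channel, ran from 34.5 to 45.9 TPM in the portions of tumors 1 and 2 and stood at 72.6 TPM in tumor 3 (limma, unadjusted p = 0.00103, adjusted p = 0.33). In all, 8 of the 20 had an unadjusted p under 0.05, beside 7.15% of all genes, and none an adjusted one. Slc7a11, the cystine transporter also counted with pigment genes, was the lowest member, at 1.36 ± 0.31 TPM. These are bulk samples, in which fewer cells of a type and less RNA per cell cannot be told apart, here and throughout.

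**Figure D2:**
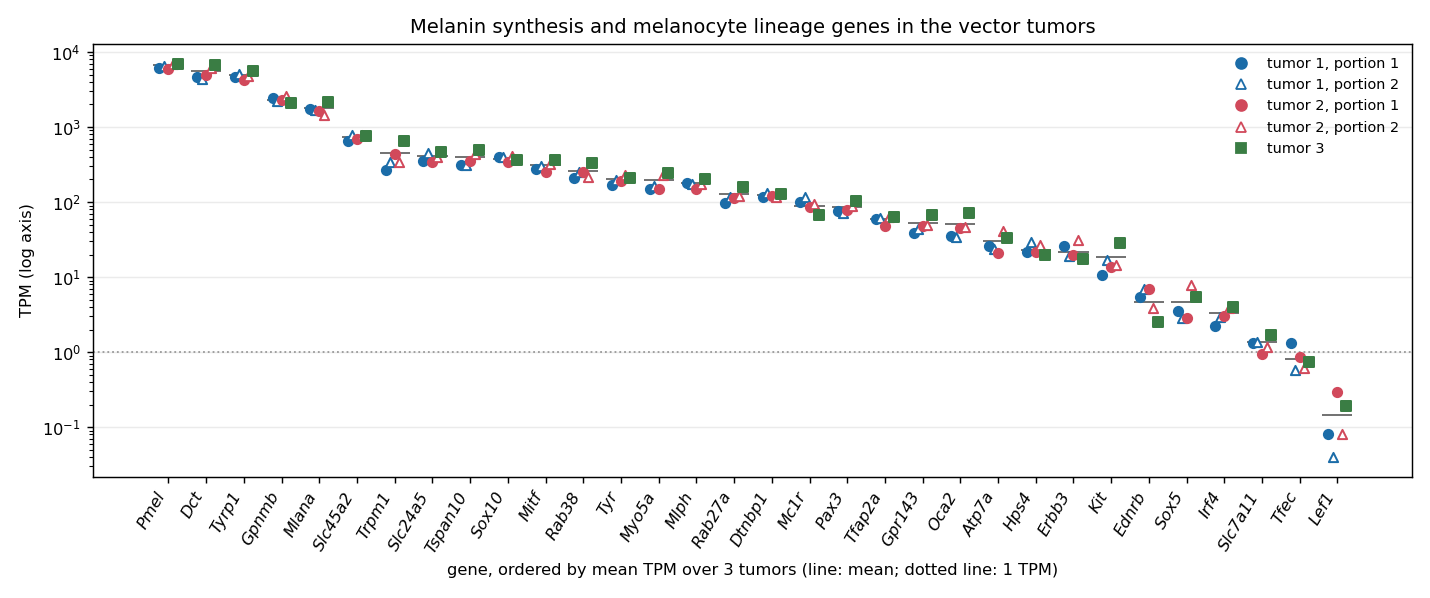
TPM (y axis, log axis) of 20 genes of melanin synthesis and 12 lineage regulators, ordered by mean, with 1 point for each of the 5 libraries and a line at the mean over 3 tumors. Pmel, Dct and Tyrp1 are the 3 highest of the plotted genes in every library, Trpm1, Oca2 and Kit have tumor 3 on top, and Tfec and Lef1 lie under 1 TPM in the mean.

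Of 12 regulators and receptors of melanocytes, 10 were expressed in every tumor, with a median SD of 19.99% of the mean, beside 10.9% over all expressed genes. Sox10, the neural crest factor, stood at 380 ± 18.5 TPM and Mitf at 312 ± 41.9 TPM, with Mitf at 274, 307, 248, 324 and 361 TPM. Mc1r, the receptor for melanocyte-stimulating hormone, ran the other way from the pigment genes: 100, 116, 85.0 and 95.2 TPM in tumors 1 and 2 and 67.6 TPM in tumor 3. Kit, the receptor for stem cell factor that mast cells also use, had the widest spread of the list, at 10.6, 17.1, 13.7, 14.3 and 28.4 TPM. Pax3, an early lineage factor, stood at 86.4 ± 14.2 TPM. Lef1, a partner of beta-catenin, reached 0.29 TPM at most.

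Of 16 genes of dedifferentiated or invasive melanoma, 12 were expressed. Zeb2, which pigmented melanoma cells also use, stood at 57.6 ± 3.97 TPM, and Axl, a receptor kinase shared with macrophages, at 59.5, 51.4, 71.2, 79.8 and 39.0 TPM. Axl thus followed the order of the leukocyte genes below, lowest in tumor 3 and highest in tumor 2. Jun stood at 37.2 ± 4.84 TPM and Cdh2, N-cadherin, at 27.9 ± 1.20 TPM. The neural crest receptor Ngfr (0.15 TPM), the ligand Wnt5a (0.333 TPM), Egfr (0.595 TPM) and Fosl1 (0.368 TPM) were under 1 TPM. Among other genes tied to melanoma, Ptgds, a prostaglandin synthase, stood at 2404 ± 162 TPM, Cd63 at 2173 ± 82.0 TPM, Apoe at 2122 ± 343 TPM and S100a1 at 331 ± 46.7 TPM. The tumor suppressors Cdkn2a and Cdkn2b were near 0: Cdkn2a was listed at 0 in tumors 1 and 3 and at 0.27 and 0.53 TPM in tumor 2, and Cdkn2b ran from 0.24 to 0.50 TPM. Met, the receptor for hepatocyte growth factor, ran from 204 TPM in tumor 1 to 384 TPM in tumor 3, and of the 13 expressed genes of this list Mcam, an adhesion molecule that pericytes share, had the next widest spread, at 141, 150, 89.0, 119 and 79.7 TPM.

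All 20 genes of DNA replication and mitosis were expressed, and they varied little, with a median SD of 8.48% of the mean. Cdk4, the G1 kinase, was the highest and most variable, at 469, 529, 486, 574 and 706 TPM. Pcna, the sliding clamp of replication, stood at 463 ± 14.4 TPM, Rrm2 at 290 ± 28.5 TPM and Cdk1 at 283 ± 15.5 TPM. Mki67, the Ki-67 antigen, held 70.5, 73.3, 73.7, 94.5 and 101 TPM. Tumor 3 was the highest library for 13 of the 20, beside 24.5% of expressed genes. In limma's F-test 2 of the 20 had an unadjusted p under 0.05, beside 7.15% of all genes. Glycolysis genes were as steady: all 18 were expressed, with a median SD of 6.45% of the mean, led by Gapdh, Eno1 (3673 ± 244 TPM), Pgk1 (3362 ± 166 TPM) and Pkm (2554 ± 114 TPM). Car9, a carbonic anhydrase induced by low oxygen, stood at 139 ± 10.6 TPM, and Egln3, an oxygen sensor, ran from 5.91 TPM in tumor 1 portion 1 to 1.25 TPM in tumor 3.

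Median levels of the main stromal lists were far under that of the pigment genes, 231 TPM. They were 3.01 TPM for fibroblast, 18.9 TPM for fibrillar collagen, 18.1 TPM for basement membrane and 7.26 TPM for endothelial genes. The 25 genes of the fibroblast list took 0.0405 ± 0.0050% of TPM, and 22 of them were expressed, 18 in every tumor. Among defining markers, Dcn, a proteoglycan of collagen fibres, held 21.3, 19.4, 29.6, 7.65 and 10.7 TPM. Lum, a related proteoglycan, stood at 2.19 ± 0.49 TPM, and Pdgfra, the receptor that marks fibroblasts, at 1.61 ± 0.40 TPM. Within tumor 2 these genes differed between portions by as much as between tumors: portion 2 was under portion 1 for Dcn, Lum and Pdgfra. Pi16, a marker of adventitial fibroblasts, varied most, at 2.51, 3.27, 4.06, 0.81 and 0.64 TPM. The most abundant members, Fbln1 (133 ± 12.96 TPM), Fn1 (82.4 ± 18.1 TPM), Postn (38.0 ± 10.0 TPM) and Pdpn (23.3 ± 7.33 TPM), are not made by fibroblasts alone.

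Of 18 genes of fibrillar collagens and collagen processing, 17 were expressed in every tumor, and 0 of the 17 had an unadjusted p under 0.05 (limma), beside 7.15% of all genes. Col1a1 held 110, 79.0, 97.3, 63.9 and 86.4 TPM, Col3a1 held 115, 82.9, 102, 51.8 and 59.9 TPM, and Serpinh1, the chaperone of collagen folding, stood at 392 ± 25.6 TPM. Portion 1 exceeded portion 2 in both tumors for both collagens, and tumor 3 lay within the range of the other libraries. Lox, a collagen crosslinking enzyme, ran from 3.47 to 13 TPM. Tumor 3 was the lowest library for 8 of 16 expressed basement membrane genes, beside 20.6% of all. In that list Sparc, a collagen-binding glycoprotein, was highest, at 1720, 1595, 1437, 1375 and 984 TPM (unadjusted p = 0.00173, adjusted p = 0.384, limma), and Col4a1 stood at 95.7 ± 5.16 TPM, Col4a2 at 61.2 ± 4.07 TPM and Agrn, agrin, at 57.2 ± 11.7 TPM. Among matrix proteases, Mmp14 stood at 149 ± 17.7 TPM, and Mmp3, stromelysin, varied most, at 23.4, 9.41, 21.0, 4.79 and 5.87 TPM, again higher in portion 1 of both tumors.

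Endothelial genes were expressed in all tumors and mostly lowest in tumor 3. Of 22 genes, 20 were expressed, and tumor 3 was the lowest library for 14 of the 20, beside 20.6% of all expressed genes. Pecam1 held 20.2, 15.1, 21.9, 15.5 and 13.4 TPM, Cdh5, the cadherin of endothelial junctions, 16.8, 12.9, 15.5, 14.8 and 9.81 TPM, and Kdr, the VEGF receptor, stood at 6.46 ± 0.34 TPM. Eng led the list at 142 ± 9.03 TPM, with Egfl7 at 52.8 ± 6.13 TPM and Plvap, of fenestrated vessels, at 35.1 ± 8.16 TPM. Vwf, von Willebrand factor, went against the list: 30.0, 41.0, 33.0 and 42.0 TPM in the portions of tumors 1 and 2 and 102 TPM in tumor 3 (limma, unadjusted p = 0.00279, adjusted p = 0.403). With Vwf counted in, the summed share of the list was 0.0406 ± 0.0006%. Of 12 expressed pericyte and smooth muscle genes, tumor 3 was the lowest library for 6, beside 20.6% of all expressed genes. It was the highest for 2, beside 24.5%. Rgs5 stood at 15.2 ± 0.21 TPM, Acta2 was highest in tumor 3 at 24.6 TPM, and Myh11 stood at 1.76 ± 0.54 TPM. Des, the intermediate filament of muscle, held 8.65, 14.5, 12.5, 5.74 and 3.08 TPM. Lymphatic genes were at low levels, with Ccl21a from 1.66 to 10.3 TPM and Prox1 at 2.31 ± 0.61 TPM.

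Genes of skin and skeletal muscle differed between the portions of a tumor, and haemoglobin genes were highest in tumor 1. Besides Krt14, tumor 1 portion 1 held Krt5 at 32.6 TPM, Krt10 at 15.5 TPM and Krt1, of suprabasal epidermis, at 26.2 TPM, while Krt1 was listed at 0 in the other 4 libraries. Tumor 2 portion 1 was next, with Krt14 at 15.4 TPM and Krt5 at 8.31 TPM. Krtdap, a keratinocyte differentiation gene, was in both portions of tumor 1, at 50.0 and 21.8 TPM, and at 1.01 TPM or less elsewhere. The keratinocyte list took 0.0523% of TPM in tumor 1 portion 1 and 0.0126%, 0.0147%, 0.00894% and 0.0118% in the others, and most of that floor was Lgals7, galectin-7, at 107 ± 16.5 TPM in every tumor. Of the 10 most variable named genes among those with a mean of at least 5 TPM, 5 are expressed in keratinized epithelium (Krt14, Sprr2a2, Krtdap, Krt6a and Krt16), 2 are S100a8 and S100a9, and 3 are small or repeated RNA genes and pseudogenes (Rpl39-ps, Bc1 and Snora34) that were listed at 0 in 4 of the 5 libraries.

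Skeletal muscle genes were highest in other libraries: Acta1, skeletal actin, held 20.7, 45.2, 45.9, 8.37 and 13.1 TPM, and Ckm, muscle creatine kinase, 5.66, 15.2, 19.5, 5.77 and 7.08 TPM. Tnnt3, a fast troponin, held 8.01, 23.8, 21.3, 3.71 and 3.94 TPM. Tumor 1 portion 2 and tumor 2 portion 1 were thus the libraries with most muscle RNA, 1 from each tumor. Of the 18 expressed muscle genes, 0 had an unadjusted p under 0.05 (limma), beside 7.15% of all genes. Haemoglobin genes put tumor 1 highest: Hbb-bs held 883, 1299, 727, 279 and 198 TPM and Hba-a1 held 420, 588, 304, 112 and 101 TPM. Both portions of tumor 1 were highest for all 5 expressed red cell genes, beside 7.67% of expressed genes. All 5 had an unadjusted p under 0.05 (adjusted p of 0.54 or more, limma), beside 7.15% of all genes. Hba-a1 and Hba-a2 are near-identical copies, so their split is uncertain. Adipocyte genes were low, with Adipoq at 1.16 ± 0.60 TPM and Plin1 at 0.555 ± 0.375 TPM. Fabp4, which capillaries share, stood at 49.1 ± 17.8 TPM, and Pparg reached 11.8 TPM in tumor 2 portion 1 and at most 2.74 TPM elsewhere. Mbp, a myelin gene of the Schwann cell list, stood at 198 ± 10.6 TPM in every tumor.

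**Figure D3:**
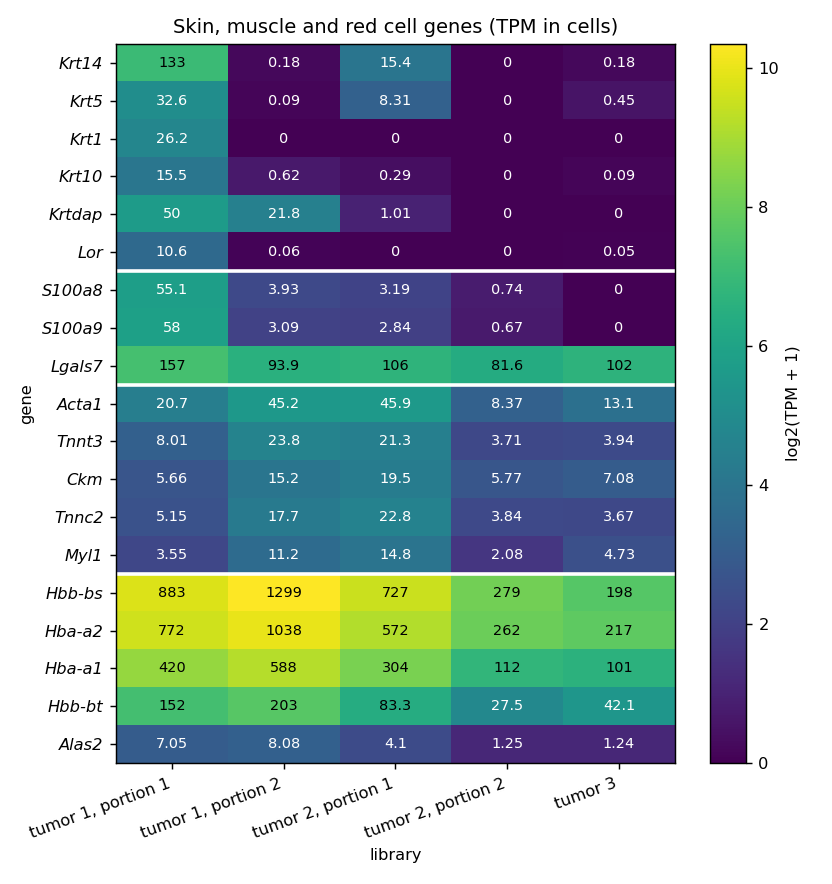
Heat map of log2(TPM + 1) for genes of skin, S100a8, S100a9 and Lgals7, skeletal muscle and red cells (rows) in the 5 libraries (columns), with the TPM printed in each cell. Keratins and S100a8 and S100a9 peak in tumor 1 portion 1, muscle genes in tumor 1 portion 2 and tumor 2 portion 1, and haemoglobins in tumor 1.

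Leukocyte genes lay higher in tumor 2 than in tumor 3, though none passed the adjusted threshold. All 12 genes of a pan-leukocyte list were expressed in every tumor. Both portions of tumor 2 were highest for 10 of the 12, beside 10.9% of expressed genes, and tumor 3 was lowest for 9, beside 20.6%. Ptprc, CD45, held 12.9, 8.89, 18.9, 23.3 and 8.66 TPM. Laptm5, a lysosomal protein of blood cells, held 43.4, 38.5, 65.5, 63.5 and 26.2 TPM (limma, unadjusted p = 0.000619, adjusted p = 0.30), and Cd52 held 76.3, 63.5, 123, 96.1 and 42.0 TPM. Tumor 1 lay between, with portion 2 near tumor 3 for several members. Of the 12, 9 had an unadjusted p under 0.05, beside 7.15% of all genes, and 10 had a range of at least 2-fold, beside 20.2%. Arhgdib, the most abundant member at 543 ± 23.4 TPM, did not follow the others.

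Macrophage genes, defining markers included, were present in every tumor and lay higher in tumor 2 than in tumor 3. The 22 genes took 0.112 ± 0.044% of TPM: 0.121% and 0.106% in tumor 1, 0.182% and 0.130% in tumor 2 and 0.0680% in tumor 3. C1qa, a chain of the complement starter C1q that macrophages make, held 173, 150, 245, 185 and 76.5 TPM (limma, unadjusted p = 0.00175, adjusted p = 0.384). Adgre1, the F4/80 antigen, held 14.5, 12.6, 26.4, 24.1 and 9.61 TPM, and Csf1r, the receptor for the macrophage growth factor CSF1, 18.9, 18.7, 25.0, 20.6 and 9.99 TPM. For all 3 defining markers, tumor 3 was lowest and both portions of tumor 2 were highest. Of 20 expressed members, 16 were lowest in tumor 3 (20.6% of all expressed genes), 13 were highest in both portions of tumor 2 (10.9%), and 11 had an unadjusted p under 0.05 (7.15%), with none past the adjusted threshold. The count for tumor 2 was 7 with size factors in place of TPM. Lyz2, lysozyme, was the most abundant at 166, 174, 296, 154 and 168 TPM and did not follow: it was high only in tumor 2 portion 1. Ctss, cathepsin S, stood at 162 ± 77.6 TPM, and Cx3cr1, the fractalkine receptor, varied most, from 1.61 TPM in tumor 3 to 8.68 TPM in tumor 2 portion 2.

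**Figure D4:**
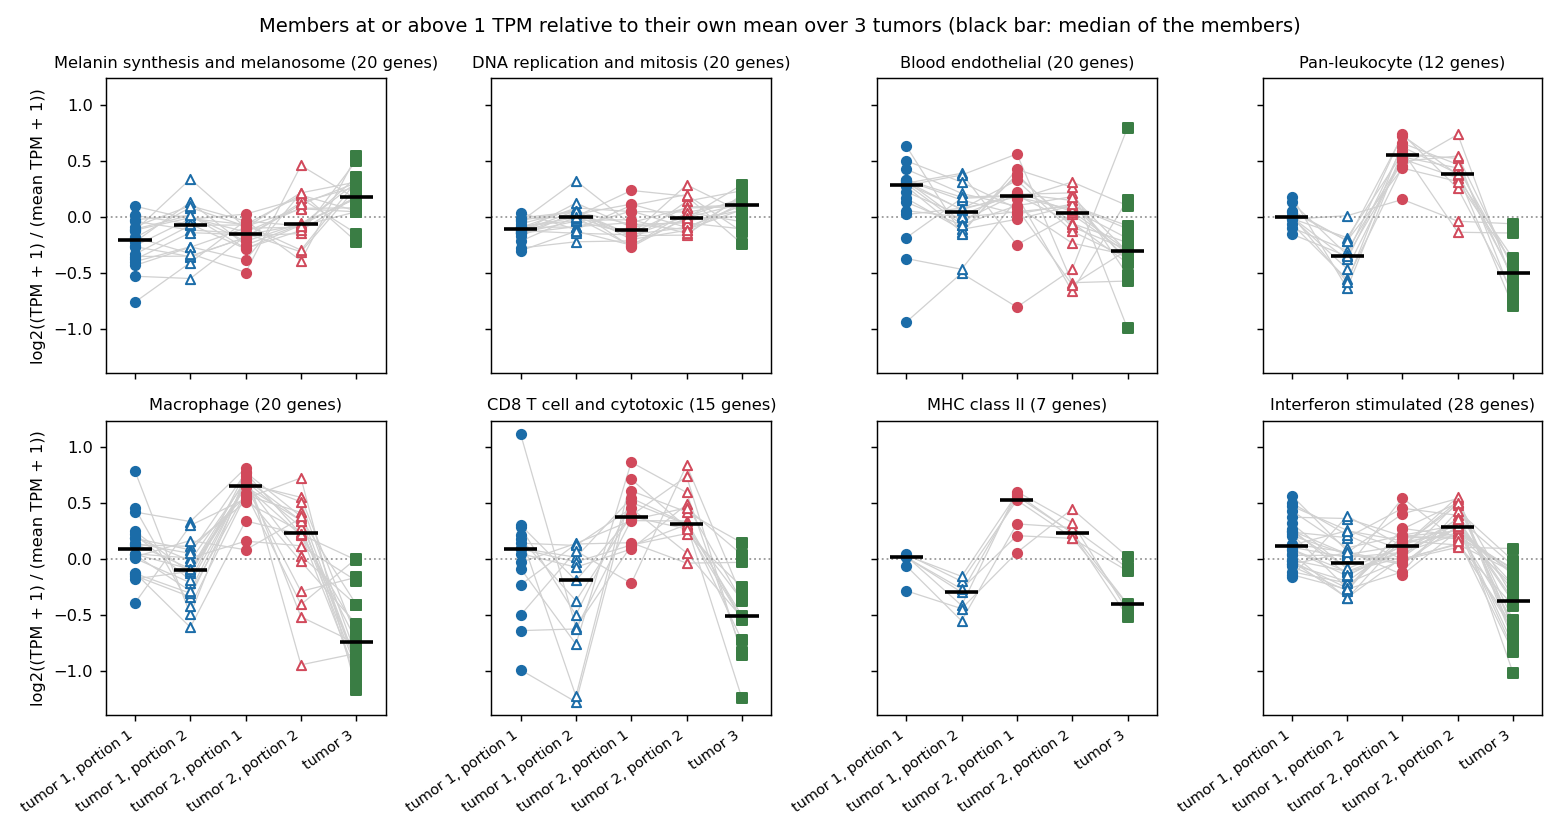
For 8 lists, the log2 ratio of (TPM + 1) in each library to (mean TPM + 1) over the 3 tumors (y axis), with 1 point and grey line per expressed member and a black bar at the median of the members. Tumor 3 lies lowest in the leukocyte, macrophage, cytotoxic, MHC class II and interferon lists and highest in the melanin list, where 14 of 20 genes had it on top.

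Among expressed activation genes of macrophages, tumor 3 was the lowest library for 3 of 10 of alternative and 5 of 8 of classical activation. That stands beside 20.6% of all expressed genes, and tumor 3 was the highest library for 0 in either list. Of 16 genes of alternative activation, 10 were expressed. Arg1, arginase, held 16.7, 9.85, 21.4, 8.61 and 11.8 TPM, Mrc1, the mannose receptor, stood at 8.88 ± 1.33 TPM, Tgfb1 at 28.6 ± 6.37 TPM and Folr2 at 10.6 ± 4.54 TPM. Cd163, the haemoglobin scavenger receptor, ran from 0.77 to 4.99 TPM with the low values in tumor 2 portion 2 and tumor 3. Of 12 genes of classical activation, 8 were expressed: Cxcl10 led at 226, 186, 211, 207 and 208 TPM, Cxcl9 held 38.7, 35.2, 47.4, 46.1 and 33.4 TPM, and Nos2, the inducible nitric oxide synthase, 4.54, 1.87, 4.47, 3.06 and 1.15 TPM. Il1b stood at 3.51 ± 0.26 TPM and Tnf at 2.95 ± 1.49 TPM. Of the genes tied to lipid-laden macrophages, Trem2, their receptor, held 14.3, 20.8, 23.4, 20.6 and 8.19 TPM, while Gpnmb, Cd63 and Apoe, which lead that list, are also expressed by melanoma cells. Tumor 3 was lowest for 10 of the 14 genes of that list, beside 20.6% of all expressed genes, and highest for 0.

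Apart from S100a8 and S100a9 in tumor 1 portion 1, defining genes of granulocytes and dendritic cells were at a few TPM or less. S100a8 and S100a9, the calprotectin subunits that mark neutrophils, held 55.1 and 58.0 TPM in tumor 1 portion 1 and at most 3.93 TPM in any other library. That is the library with the high keratins, and the part of skin or of neutrophils in these values was not tested. Of other genes of the neutrophil list, Il1r2 (2.88 TPM, the next 1.47 TPM), Retnlg (1.28 TPM, the next 0.46 TPM) and Mmp9 (3.10 TPM, the next 2.99 TPM) were also highest in that library. Csf3r, the receptor for the neutrophil growth factor, held 2.72, 1.57, 3.63, 3.07 and 1.34 TPM, and Clec4d was highest in tumor 2 portion 1, at 6.81 TPM. Without tumor 1 portion 1 the list took at most 0.00273% of TPM. Cxcr2, a neutrophil chemokine receptor, was at 0.38 TPM in tumor 1 portion 1 and at most 0.12 TPM elsewhere, and the granule genes Camp and Ngp were listed at 0 in every library. Ly6g is not in the table. The eosinophil genes Epx, Prg2 and Il5ra were listed at 0 in every library. The mast cell markers Cpa3 (1.33 ± 0.25 TPM) and Mcpt4 (2.11 ± 1.07 TPM) were near 1 TPM. Of the dendritic markers, Zbtb46 stood at 3.17 ± 0.32 TPM, and Flt3 (0.493 TPM), Xcr1 (0.39 TPM) and Clec9a (0.593 TPM) were under 1 TPM; the share of the list, 0.0242 ± 0.0014%, came from Sirpa (140 ± 17.9 TPM) and Fscn1 (74.8 ± 8.95 TPM), which other cells express. Of monocyte genes, Ly6c2 held 11.4, 10.5, 20.7, 19.0 and 13.2 TPM, Ccr2, the receptor that brings monocytes into tissue, 5.59, 4.83, 9.10, 6.49 and 5.96 TPM, and Itgam, CD11b, 14.5, 9.71, 19.1, 20.1 and 7.38 TPM.

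T cell genes were detected in every library at a few TPM. Of 20 genes, 15 were expressed, 10 of them in every tumor, and the list took 0.00621 ± 0.00126% of TPM. Cd3e held 2.42, 1.78, 6.37, 2.78 and 1.60 TPM, Cd3g held 4.98, 2.52, 6.28, 5.66 and 3.03 TPM, and Cd3d stood at 1.06 ± 0.21 TPM. Trac, the constant segment of the alpha chain, held 5.13, 3.35, 9.22, 5.65 and 2.42 TPM (unadjusted p = 0.0449, adjusted p = 0.679, limma). Cd8a, the coreceptor of cytotoxic T cells, held 2.22, 2.62, 3.17, 3.16 and 1.26 TPM, and Cd4, the coreceptor of helper T cells, 1.13, 1.08, 1.58, 1.91 and 0.83 TPM. Both portions of tumor 2 were highest for 11 of the 15 expressed genes (10.9% of all) and tumor 3 was lowest for 9 (20.6%), yet 1 of the 15 had an unadjusted p under 0.05, which is near the 7.15% of all genes. The highest members, Tcf7 (16.4 ± 2.13 TPM) and Lck (9.37 ± 0.70 TPM), did not follow the CD3 genes. Foxp3, the factor of regulatory T cells, held 1.28, 1.31, 1.25, 0.99 and 0.71 TPM.

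Cytotoxic genes followed the same order of tumors with larger spread. Of 19 genes, 15 were expressed, tumor 3 was lowest for 10 (20.6% of all expressed genes) and both portions of tumor 2 highest for 10 (10.9%), and 6 had an unadjusted p under 0.05 (7.15%). Gzmb, granzyme B, held 4.57, 2.49, 9.77, 7.93 and 2.33 TPM, and Prf1, perforin, 2.77, 1.19, 3.40, 2.84 and 1.18 TPM. Gzma, granzyme A, held 0.94, 0.59, 4.88, 4.16 and 3.26 TPM and had tumor 1, not tumor 3, at the bottom. Ccl5 (36.4 ± 10.7 TPM), Ccl4 (13.2 ± 6.70 TPM) and Nkg7 (5.81 ± 1.00 TPM) led the list. Ifng, interferon gamma, was even over the tumors, at 0.95, 1.51, 1.53, 1.23 and 1.24 TPM. The NK cell markers Ncr1 (0.36 TPM) and Klrb1c (0.347 TPM) were under 1 TPM, and of the 12 genes of the NK list 4 were expressed, led by Fcgr3 (27.7 ± 8.40 TPM), which macrophages share.

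The receptor that the antibody binds was expressed at 2.23 TPM or less. Pdcd1 held 2.23, 1.58, 2.23, 2.13 and 0.61 TPM, lowest in tumor 3 (limma, unadjusted p = 0.0572, adjusted p = 0.717). Its ligand Cd274 was higher per length, at 27.9, 18.7, 27.0, 32.0 and 23.2 TPM, and tumor 3 lay within the range of the others. The other ligand of PD-1, Pdcd1lg2, stood at 0.525 ± 0.177 TPM. Of 19 checkpoint genes, 13 were expressed, and tumor 3 was the lowest library for 9 of the 13, beside 20.6% of all expressed genes. Tigit held 2.38, 2.75, 3.52, 3.34 and 1.06 TPM and Lag3 held 2.93, 1.22, 2.39, 2.58 and 0.90 TPM, while Ctla4 did not have tumor 3 lowest, at 2.13, 1.12, 1.57, 2.03 and 1.60 TPM. Vsir, VISTA, which myeloid cells carry, varied most: 7.66, 6.95, 10.9, 10.4 and 2.83 TPM (unadjusted p = 0.00174, adjusted p = 0.384, limma). Lgals9 (191 ± 25.8 TPM) and Cd47 (51.5 ± 3.19 TPM), ligands that many cells make, led the list. Colq, the gene over-expressed in the other group of the series, ran from 0 to 0.24 TPM in these controls.

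B cell genes were close to absent. Of 12 genes, 3 had a mean of at least 1 TPM and 0 reached it in every tumor. Ms4a1, CD20, ran from 0 to 0.10 TPM and Cd79a from 0.13 to 0.54 TPM. Immunoglobulin was present at low levels: Ighm, the mu constant region, held 4.10, 5.25, 11.7, 8.99 and 2.55 TPM, and Igkc, the kappa constant region, 2.22, 1.42, 9.82, 3.10 and 0.83 TPM. Jchain reached at most 0.23 TPM. Both immunoglobulin genes were highest in tumor 2 and lowest in tumor 3. Xbp1 (115 ± 7.15 TPM) and Sdc1 (28.1 ± 8.65 TPM), which lead the plasma cell list, are expressed by many other cells.

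The number of receptor clonotypes that the authors read from the same libraries with MiXCR followed the tumors in a similar way. Alpha chain clonotypes numbered 10 and 8 in tumor 1, 21 and 15 in tumor 2 and 6 in tumor 3. Beta chain clonotypes numbered 9, 7, 14, 8 and 7, heavy chain clonotypes 1, 2, 6, 3 and 1, and clonotypes labelled IGL 2, 2, 6, 6 and 2. Of the lambda constant genes, Iglc2 was listed at 0 in tumor 2 portion 2 and tumor 3 and Iglc1 in every library, so IGL is given here by its label alone. Tumor 2 held the highest number for the alpha chain, the heavy chain and IGL in both portions, while portion 2 of tumor 2 was within the range of tumor 1 for the beta chain. With alpha chain clones between 9 and 26 per library, these numbers are too small to order clonotypes by size, and they are not scaled to a depth that is known here.

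**Figure D5:**
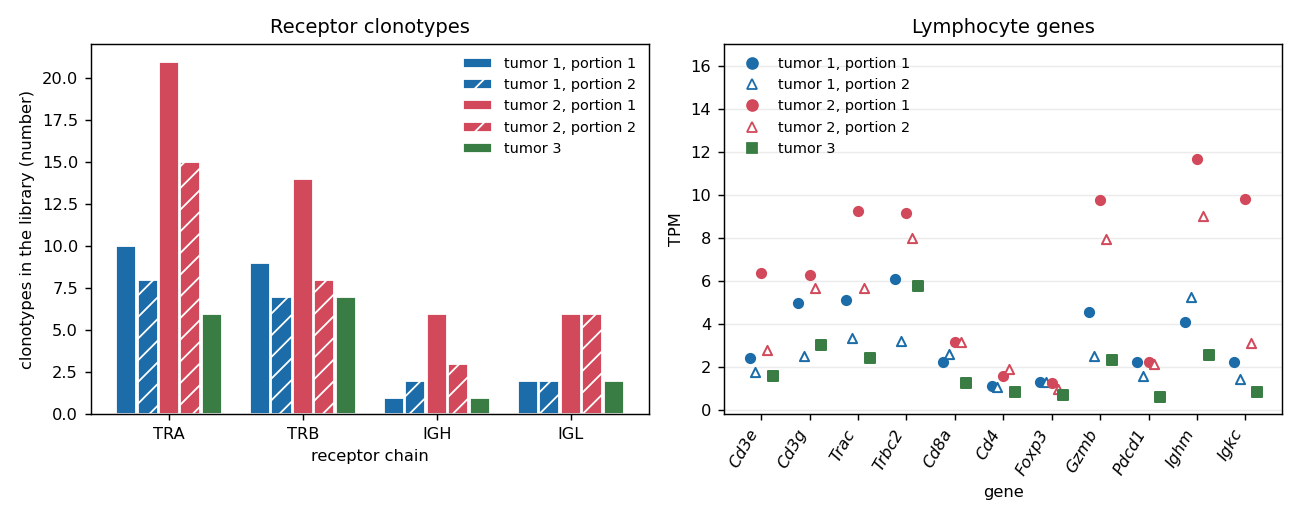
Left, number of clonotypes of 4 receptor chains (y axis) in each of the 5 libraries; right, TPM of lymphocyte genes (y axis), 1 point per library. Tumor 2 portion 1 holds 21 alpha chain clonotypes and tumor 3 holds 6, and Ighm and Igkc lie highest in tumor 2.

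Antigen presentation genes were high in every tumor. All 19 genes of MHC class I and its peptide supply were expressed, together at 1.46 ± 0.16% of TPM. B2m, the light chain of class I, held 7600, 7175, 8126, 7269 and 6146 TPM, H2-K1 held 2329, 1946, 2523, 2653 and 1969 TPM and H2-D1 held 1482, 1264, 1536, 1588 and 1143 TPM. The class I genes share long stretches of sequence, so their split is uncertain. Psmb8, an immunoproteasome subunit, stood at 364 ± 63.2 TPM and Tap1, the peptide transporter, at 143 ± 19.3 TPM, and H2-Q7 varied most, from 19.2 to 40.4 TPM. Calr, calreticulin, was the exception with tumor 3 highest, at 1035 TPM. Tumor 3 was lowest for 10 of the 19, beside 20.6% of all expressed genes, and both portions of tumor 2 were highest for 9, beside 10.9%.

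MHC class II genes, which mark professional antigen-presenting cells, were highest in tumor 2. All 7 expressed members were highest in both portions of tumor 2, beside 10.9% of expressed genes. Cd74, the invariant chain, held 806, 594, 1203, 992 and 575 TPM (limma, unadjusted p = 0.0121, adjusted p = 0.531) and H2-Aa held 267, 215, 390, 311 and 200 TPM. H2-Eb1 stood at 238 ± 76.3 TPM and H2-Ab1 at 208 ± 56.9 TPM. Ciita, the switch of the class II genes, held 6.94, 6.11, 9.06, 12.2 and 8.81 TPM and did not have tumor 3 lowest.

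All 28 interferon-stimulated genes were expressed in every tumor, and 21 of them were lowest in tumor 3, beside 20.6% of all expressed genes. Isg15, the ubiquitin-like modifier whose promoter is shown above, held 364 and 361 TPM in tumor 1, 323 and 319 TPM in tumor 2 and 157 TPM in tumor 3 (limma, unadjusted p = 0.000105, adjusted p = 0.212). Irf7, the factor that amplifies type I interferon, held 94.5, 91.2, 110, 105 and 38.9 TPM (unadjusted p = 0.000109, adjusted p = 0.212, limma) and varied most in the list. Ifit3, also shown above, held 201, 173, 153, 175 and 82.0 TPM. For each of these 3 genes the 4 libraries of tumors 1 and 2 lay above tumor 3 by more than the portions of either tumor differed. Of the 28 genes, 13 had an unadjusted p under 0.05, beside 7.15% of all genes, and 12 had a range of at least 2-fold, beside 20.2%. Bst2, tetherin, was the most abundant and did not follow, at 1078, 1005, 1161, 1255 and 1245 TPM, and Irgm1 (307 ± 35.9 TPM), a target of interferon gamma, varied little. Counts of members with tumor 3 lowest were 21 of 28 here, 16 of 20 for macrophages and 9 of 12 for leukocytes, and they were 21, 16 and 9 again without tumor 1 portion 1 and 21, 16 and 10 with size factors. Leukocyte and macrophage genes shared the low levels of tumor 3 with the interferon-stimulated genes, and their part in those levels was not tested. The lists differed in tumor 2: both its portions were highest for 10 of 28 interferon-stimulated, 13 of 20 macrophage and 10 of 12 leukocyte genes. The same held for 10.9% of all expressed genes.

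The genes that make and receive interferon did not share that order. Ifng is given above, and Ifnb1, interferon beta, ran from 0 to 1.36 TPM. Ifngr2, a chain of the receptor for interferon gamma, was highest in tumor 3, at 16.7, 19.7, 17.2, 24.0 and 33.2 TPM. Ifngr1 stood at 22.8 ± 2.23 TPM, Ifnar1 and Ifnar2, the type I receptor chains, at 30.2 ± 2.02 and 42.6 ± 3.85 TPM, and Jak1 at 31.7 ± 2.91 TPM. Tumor 3 was the lowest library for 3 of the 9 expressed members, beside 20.6% of all.

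Chemokine genes were expressed in part and split over the portions. Of 32 genes, 25 were expressed. Besides Cxcl10, the most abundant were Ccl8, at 124, 92.3, 246, 65.4 and 105 TPM, Ccl2, which draws monocytes, at 47.4, 19.8, 69.2, 51.8 and 69.7 TPM, and Ccl7 (47.9 ± 13.1 TPM). Tumor 3 was the lowest library for 8 of the 25, beside 20.6% of expressed genes, and Ccl2 was highest there. Cxcl13, a B cell attractant, varied most, with 2.12, 4.43 and 3.46 TPM in tumor 1 and tumor 2 portion 1 and 0.19 and 0.18 TPM in tumor 2 portion 2 and tumor 3. Complement genes followed the macrophages in part: 17 of 18 were expressed and 12 of the 17 were lowest in tumor 3, beside 20.6% of all expressed genes, 3 of the 12 being C1q chains. C2 stood at 186 ± 15.1 TPM, and C3, the central component, held 16.1, 15.8, 23.6, 8.30 and 7.98 TPM. Among growth factors, Mif, the cytokine that melanoma cells make, held 3495, 3500, 3263, 3027 and 2824 TPM, Csf1 stood at 20.8 ± 1.19 TPM, and Il33, an alarmin, varied most, from 6.24 to 1.80 TPM.

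Over all genes, the 5 with the smallest p in limma's F-test were Bc1, 2 numbered gene models, Npas3 and Isg15. Bc1, a short RNA gene of neurons, was listed at 0 in the 4 libraries of tumors 1 and 2 and at 58.9 TPM in tumor 3 (adjusted p = 0.107). The models Gm43962 and Gm13192 had the same pattern, at 29.5 and 22.6 TPM in tumor 3 and 0 elsewhere. Npas3, a transcription factor of the nervous system, marked tumor 2: 0.91, 1.26, 12.4, 16.1 and 0.76 TPM (adjusted p = 0.212). With robust variance estimates the 5 genes called were Bc1, Gm43962, Gm13192, Npas3 and Snhg9, a short host gene of small nucleolar RNA that held 11.8 and 22.5 TPM in tumor 1 and was listed at 0 elsewhere. Genes listed at 0 in all but 1 tumor make up 4 of these 5, and a listed 0 in estimates of this kind can also be a failed estimate.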

How the data were processed

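RNA of homogenized tumors was extracted with TRIzol and sequenced as non-directional polyA libraries, per the labels' protocols, so reads of overlapping antisense genes were not told apart. The authors deposited log2(TPM + 1), an assignment that rests on the values themselves, of which 99.82% of those under 40 TPM return to whole hundredths of a TPM within 0.0002 TPM. RSEM and mm39 are named in the submitters' processing notes; the sources used here give no aligner, annotation or version. The repertoire values are the authors' MiXCR clonotype and clone numbers, per the labels. The authors' deposited comparison of both groups was not used.

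Values were turned back to TPM, portions of a tumor were averaged, and shares are of each library's summed TPM (Python 3.11.15, numpy 2.4.6, pandas 2.3.3, matplotlib 3.10.9). Tumors were compared with limma 3.58.1 in R 4.3.3 (lmFit on log2(TPM + 1), eBayes with trend, F-test, genes with a mean of at least 1 TPM). The fit, checked on simulated data, takes its error from the 2 tumors with 2 portions, and assumes that tumor 3 varies like them; its p-values measure the spread between these samples, since the labels tie no tumor to an animal. Of 625 listed genes 622 were in the table; Prame, Ahsp and Ly6g were not, and 41 are in more than 1 list. Named genes were Pmel, Pdcd1, Cd274 and Colq; in each described list up to 4 members of highest mean, the defining markers and the most variable expressed member; the 15 most abundant and 10 most variable genes; and the 5 of smallest p. Some genes that this rule names are not reported here. Other genes named, and the counts of tumors that lay above or below all others, were chosen after their values were seen. The tumors, lists and tests were chosen with earlier results of these data known.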

Additional observations from a re-analysis of the deposited data

Results flagged for a closer look

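In each group of 5 libraries the highest or lowest value was called apart when its gap to the nearest other value exceeded Dixon's critical share of the range, 0.71. The rule was applied to 269 results (gene lists, receptor measures and the named genes) and picked 32. Chance picks about 1 in 20 groups when values are independent, which portions of a tumor are not. Some of the named genes were also named for a large spread or a small p. The number picked therefore cannot be judged against that rate.

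Tumor 1 portion 1 was the highest library for 13 of these. They are the keratinocyte list (0.0523% of TPM, the next at 0.0147%), the neutrophil list (0.0134%, the next at 0.00273%), Krt14 (133 TPM), Sprr2a2 (103 TPM), Krt6a (73.9 TPM), Krt16 (62.8 TPM), Krt5 (32.6 TPM), Krt1 (26.2 TPM), Krt10 (15.5 TPM), S100a8 (55.1 TPM), S100a9 (58.0 TPM), Rpl39-ps (120 TPM) and Snora34 (76.4 TPM). The last 2 were listed at 0 in the other libraries.

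Tumor 3 stood apart in 7 genes. It was highest for Vwf (102 TPM), Bc1 (58.9 TPM) and Ngfr (0.32 TPM), and lowest for Isg15 (157 TPM), Irf7 (38.9 TPM), Lgals9 (161 TPM) and Jun (31.7 TPM).

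Tumor 2 portion 1 was highest for 14 beta chain clonotypes, 9 heavy chain clones, Lyz2 (296 TPM), Folr2 (22.4 TPM), Pparg (11.8 TPM), Igkc (9.82 TPM) and Cd3e (6.37 TPM), and lowest for Mbp (163 TPM). Tumor 2 portion 2 was highest for the dendritic list (0.0278% of TPM) and Jak1 (38.1 TPM) and lowest for Eef1a1 (6704 TPM). Tumor 1 portion 2 was highest for Rrm2 (363 TPM).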

How the results depend on the processing

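No paired analysis was possible because no comparison between groups was made. The count of genes differing among tumors was 0 in each setting except robust eBayes, which called 5. Without tumor 1, 2 or 3 it was 0 each time, with 757, 1840 and 617 genes at an unadjusted p under 0.05. TPM rescaled without mitochondrial, ribosomal, immunoglobulin and haemoglobin genes moved shares up by construction: melanin synthesis to 3.06%, MHC class I to 1.82%, interferon-stimulated genes to 0.462%, fibroblast to 0.0504%, endothelial to 0.0505% and T cell to 0.00772%. The endothelial share was 0.0413% from first portions and 0.0398% from second portions, outside its narrow SD. With a minimum of 5 TPM, 3 T cell and 0 B cell genes passed. Both portions of tumor 2 were highest for 10 interferon-stimulated genes, for 17 without tumor 1 portion 1 and for 12 to 26 when a tumor was left out, with fewer libraries to exceed, and for 7 macrophage genes with size factors in place of 13; the cause of the last was not tested. Without tumor 1 portion 1 the keratinocyte share was 0.0121% in place of 0.0187% and the neutrophil share 0.00169% in place of 0.00360%. The median-of-ratios size factors lay between -0.05 and 0.10 on the log2 scale, and the largest, 0.0967, was that of tumor 2 portion 2. Leaving out that library, and all counts of tumor order, were chosen after seeing the data. Of 2190 values of named genes and 420 list shares recomputed under the alternatives, 131 and 41 moved by at least the SD over tumors. Rescaling, which shifts values by construction, gave 99 and 32 of these. Leaving out 1 of 3 tumors, or weighting all libraries equally, cannot move a mean by its own SD. The 0 moved in those settings was thus fixed in advance, and the totals are no measure of stability.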
